A study of Gorilla gorilla gorilla with 13 samples.

Results

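The developing cortex is built by radial glia, its neural stem cells, and 9 genes by which they and their glial descendants are commonly recognised are described here. The genes were chosen by name: the glutamate transporters SLC1A3 and SLC1A2, glutamine synthetase (GLUL), the intermediate filament proteins vimentin (VIM), nestin (NES) and GFAP, the fatty acid binding protein FABP7, the calcium binding protein S100B, and the folate enzyme ALDH1L1. All 9 were found among the 18137 genes of the human-build count table, and all 9 were among the 16804 genes whose counts were high enough to be tested. Passing that filter needed a count in only some of the libraries, so it says little of the genes with low counts.

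The libraries came from gorilla cerebral organoids, 3-dimensional cultures of brain tissue, grown from the induced pluripotent stem cell line GC1 and collected at week 8 of culture, give or take 3 days. Cells were sorted into apical radial glia (aRG, 4 libraries), basal radial glia (bRG, 4), basal intermediate progenitor cells (bIP, 3) and BCL11B+ neurons (N, 2), and no group carried a treatment or an engineered allele according to the labels. One line was used, so the spread between libraries holds no difference between individuals, and separate cultures are not stated for them. The p-values therefore reflect only how these libraries varied, which may be technical. The sources used here do not name other sort antigens.

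An apical radial glial cell spans the cortical wall with a long fibre that guides migrating neurons. Vimentin and nestin fill that fibre as intermediate filaments, and FABP7 (brain lipid binding protein) is carried along it. SLC1A3 (GLAST) and SLC1A2 (GLT-1) are membrane pumps that clear glutamate, which GLUL then converts to glutamine. GFAP, S100B and ALDH1L1 are used as markers of astrocytes, which arise from radial glia late in development, and GFAP is also made by primate radial glia.

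Total counts per library lay between 5464721 and 12524938 in the human-build (hg38) table. Library bRG 3 stood apart from the other 12 on the second principal component, and the nuclear RNA MALAT1 took 21.3% of its counts in the gorilla-build table, against 6.35% to 10.8% elsewhere. Both radial glia populations carried the radial glia markers (summed level of 8 genes 2496 to 4139 CPM, against 232 to 391 CPM in bIP and N). The labels were matched less well in other markers. HOPX, a marker of basal radial glia, stood at 65.7 ± 29.1 CPM (SD, n = 4) in bRG, against 150 ± 67.4 (n = 4) in aRG. The HOPX ranges overlapped (edgeR adjusted p = 0.196). The summed level of 6 basal radial glia markers also overlapped, at 1193 to 2127 CPM in bRG and 1693 to 2272 in aRG. Of these genes TNC alone had a higher mean in bRG (91.0 CPM) than in aRG (86.7 CPM). EOMES, which defines intermediate progenitors, measured 85.3 ± 49.1 CPM in bIP (n = 3) and 6.26 ± 0.677 in N (n = 2). It measured 143 ± 84.4 CPM in aRG and 367 ± 92.9 in bRG. The summed level of 6 intermediate progenitor markers was 141 to 390 CPM in bIP, 203 to 393 in aRG, 532 to 682 in bRG and 125 to 141 in N. Of these genes ELAVL2 alone had a higher mean in bIP (52.4 CPM) than in bRG (39.7 CPM). Against aRG, the means of ELAVL2, NHLH1 and PPP1R17 were higher in bIP, and those of EOMES, NEUROG1 and NEUROG2 lower. The summed level of 9 neuron markers was 3312 to 3692 CPM in bIP, near the 4748 to 5472 CPM of N and above the 477 to 957 CPM of the radial glia. Statements on bIP below concern the libraries labelled so.

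Levels are given as CPM, the count divided by the library's scaled total and brought to a common size. CPM is not corrected for transcript length, so a level is compared between libraries and never between genes. A gene is called when its p-value from edgeR's quasi-likelihood test, adjusted by Benjamini-Hochberg over all 16804 genes, is under 0.05. In bulk RNA from sorted cells, fewer cells of a type and less RNA per cell cannot be told apart.

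**Figure D1:**
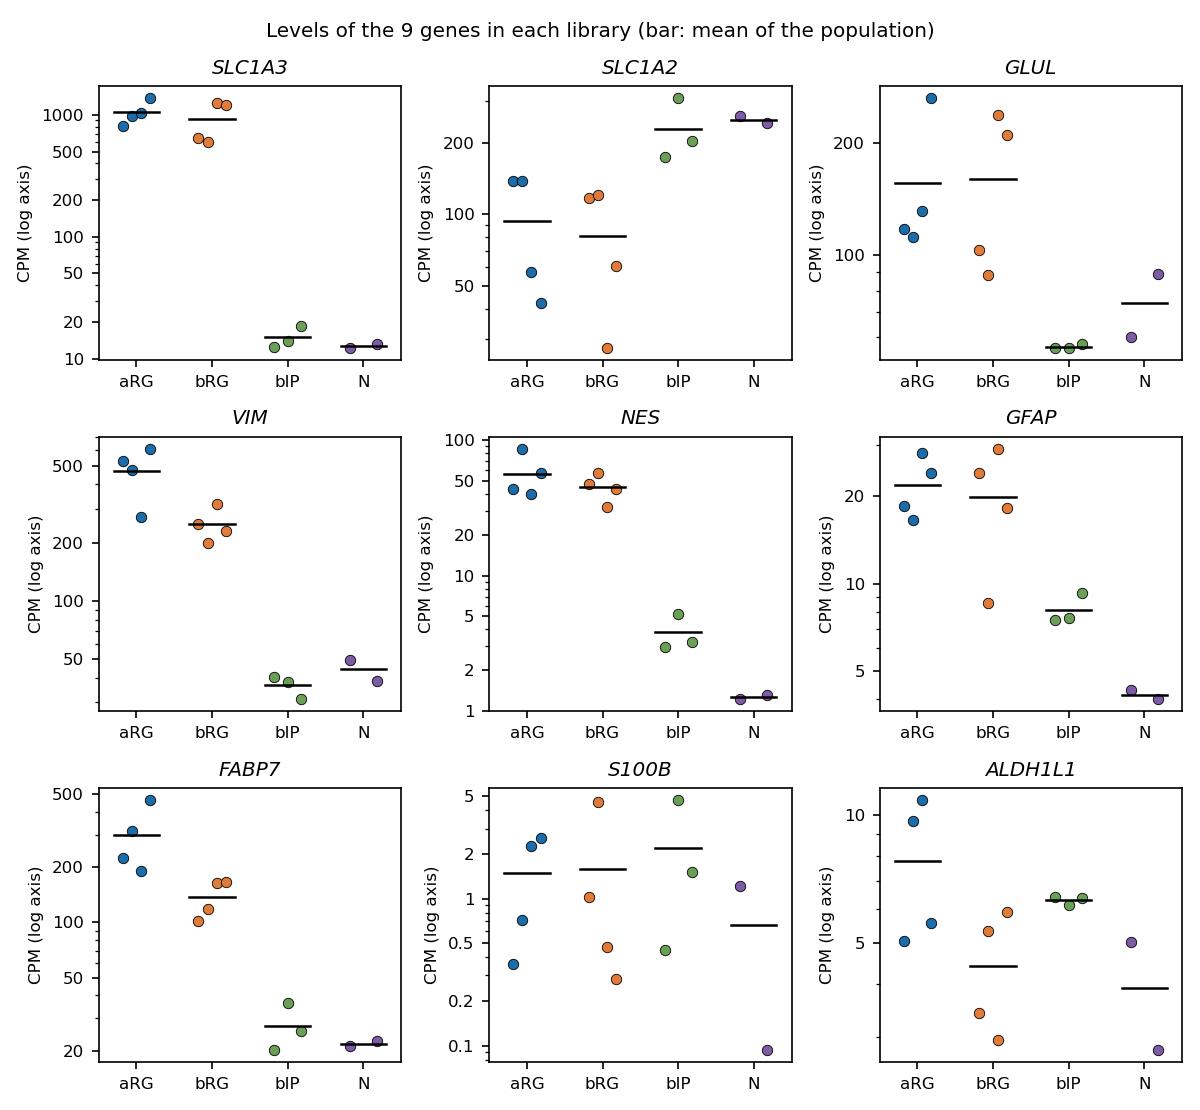
Level of each of the 9 genes (CPM, log axis) in the aRG, bRG, bIP and N libraries, where each point is a library and each bar the mean of its population. SLC1A3 lies between 601 and 1363 CPM in the 8 radial glia libraries and between 12.3 and 18.6 CPM in the other 5, while SLC1A2 runs the other way, from 27.5 to 138 CPM and from 174 to 306 CPM.

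The first question was how the 9 genes divided the radial glia from their progeny. Of the 9, SLC1A3, VIM, NES, FABP7, GFAP and GLUL fell in bIP against aRG and none rose, where 9.98% of all genes tested were called lower and 8.47% higher. The same 6 fell in bIP against bRG, where 8.44% of all genes were called lower. SLC1A2 rose in that comparison, where 8.25% of all genes were called higher. In N, 5 fell against aRG (background 9.37% lower and 10.4% higher), and 5 fell and SLC1A2 rose against bRG (9.13% lower and 10.6% higher). S100B and ALDH1L1 were called in none of these 4 comparisons, which share their control libraries in pairs. The median log2 fold change of the 9 genes was -1.47 in bIP against aRG and -1.503 against bRG, and that of all genes tested was -0.04 and -0.09.

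SLC1A3, the glutamate transporter of radial glia and of Bergmann glia, showed the widest gap. Its level was 811, 979, 1036 and 1363 CPM in aRG 1 to 4 and 649, 601, 1253 and 1194 CPM in bRG 1 to 4. It was 12.4, 14.1 and 18.6 CPM in bIP and 12.3 and 13.2 CPM in N. Every radial glia library exceeded every bIP and N library, and the aRG and bRG ranges overlapped. The log2 fold change was -6.12 in bIP against aRG (SE 0.378, edgeR adjusted p = 2.52e-08), and this p ranked 2nd of the 16804 genes. Against bRG it was -5.94 in bIP (adjusted p = 3.28e-08) and -6.18 in N (2.25e-07). The fitted level in bIP was 1.44% of that in aRG. These counts were not small, at 83 to 207 reads in the bIP libraries, so a low remainder of SLC1A3 was measured there.

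The second glutamate transporter, SLC1A2, ran the other way. This gene is the main glutamate transporter of mature astrocytes, and its mRNA is also known from some neurons. It measured 138, 137, 57.2 and 42.3 CPM in aRG 1 to 4, and 117, 120, 27.5 and 60.8 CPM in bRG 1 to 4. It measured 174, 306 and 204 CPM in bIP and 258 and 241 CPM in N. Each bIP and N library lay above each radial glia library. The log2 fold change against bRG was 1.49 in bIP (SE 0.449, 95% interval 0.54 to 2.43, edgeR adjusted p = 0.0288) and 1.62 in N (SE 0.491, 0.58 to 2.65, adjusted p = 0.0262). Against aRG it was 1.29 in bIP and 1.42 in N, neither of which was called (adjusted p = 0.0541 and 0.0511).

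These calls lay close to the threshold in both directions. The call in bIP against bRG ended without bRG 4 (adjusted p = 0.0793), bIP 2 (0.144) or bIP 3 (0.0525). That in N against bRG ended without bRG 4 (0.0679), N 1 (0.115) or the other neuron library (0.103), and in a fit of only these populations (0.0626). In bIP against aRG, SLC1A2 was called by DESeq2 (0.0274), by limma with library weights (0.00289), in a fit of only these populations (0.0171), and without aRG 1 (0.0422), aRG 2 (0.0376), bRG 2 (0.0466) or bRG 3 (0.0145). In N against aRG it was called by DESeq2 (0.0431), limma (0.00302), with no filter (0.0475), in the gorilla-build table (0.0453), in a fit of only these populations (0.0217), and without aRG 1 (0.0389), aRG 2 (0.0357), bRG 2 (0.0445) or bRG 3 (0.0133). Its log2 fold change stayed between 1.02 and 1.87 over the 4 comparisons and all alternatives run.

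The balance of the transporters can be read within each library as the log2 ratio of SLC1A3 to SLC1A2 CPM, a quantity to be compared between libraries only. It averaged 3.65 ± 1.15 in aRG and 3.65 ± 1.53 in bRG (SD, n = 4 each). It averaged -3.90 ± 0.50 in bIP (n = 3) and -4.29 ± 0.15 in N (n = 2). The lowest radial glia library stood at 2.32 and the highest of the others at -3.45.

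GLUL, which makes glutamine from glutamate in glia, fell less steeply than SLC1A3. It measured 117, 111, 131 and 265 CPM in aRG, 103, 88.0, 239 and 210 CPM in bRG, 56.1, 56.0 and 57.3 CPM in bIP, and 59.8 and 88.7 CPM in N. The 3 bIP libraries were nearly equal and below all radial glia, and the higher neuron library reached the lowest bRG library. GLUL fell by 1.47 on the log2 scale in bIP against aRG (SE 0.373, edgeR adjusted p = 0.0091) and to 35.3% of its bRG level (adjusted p = 0.00879). In N its log2 fold change was -1.07 against aRG and -1.11 against bRG, not called (adjusted p = 0.0891 and 0.0781). DESeq2 called GLUL in both (0.0419 and 0.0322). Against aRG it was also called by limma (0.0342), in a fit of only these populations (0.0394) and without bRG 3 (0.0488), and against bRG without aRG 4 (0.0339) or bRG 2 (0.0305). Its fitted level in bIP was 36.2% of that in aRG.

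Among the filament genes, VIM and NES fell together. VIM measured 528, 478, 271 and 607 CPM in aRG, 251, 200, 317 and 231 CPM in bRG, 40.5, 38.0 and 31.1 CPM in bIP, and 49.6 and 38.7 CPM in N. NES measured 43.5, 85.5, 40.1 and 57.4 CPM in aRG, 47.7, 57.4, 32.2 and 43.8 CPM in bRG, 2.99, 5.20 and 3.24 CPM in bIP, and 1.23 and 1.31 CPM in N. In neither gene did a bIP or N library reach any radial glia library. In bIP against aRG the log2 fold change of VIM was -3.69 (SE 0.307, edgeR adjusted p = 1.84e-07) and that of NES -3.88 (SE 0.380, 1.02e-06). Against bRG they were -2.77 (4.25e-06) and -3.56 (4.17e-06). Nestin is the filament of dividing progenitors, and its log2 fold change in N was -5.46 against aRG (SE 0.509, adjusted p = 7.04e-07) and -5.14 against bRG (2.04e-06). For VIM these were -3.41 (2.52e-06) and -2.50 (4.63e-05).

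GFAP, the filament protein by which astrocytes are stained, was present at a low level in the radial glia. It measured 18.4, 16.6, 28.1 and 23.9 CPM in aRG (102 to 293 reads), 23.9, 8.57, 28.9 and 18.2 CPM in bRG, 7.47, 7.63 and 9.26 CPM in bIP, and 4.29 and 4.01 CPM in N. The bRG 2 library lay within the bIP range, and no other radial glia library did. GFAP fell by 2.39 on the log2 scale in N against aRG (SE 0.499, edgeR adjusted p = 0.0019) and by 2.26 against bRG (SE 0.496, 0.00321). It fell by 1.42 in bIP against aRG (SE 0.402, 0.018) and by 1.29 against bRG (SE 0.401, 0.0342). The call in N against bRG ended without the neuron library that bears no number (0.0547). In bIP against aRG the call ended in the gorilla-build table (0.052) and without aRG 3 (0.0556), bIP 1 (0.0772) or bIP 2 (0.0741). The call in bIP against bRG ended in 6 of the 13 removals of a library: without bRG 1 (0.0767), bRG 3 (0.0627), bRG 4 (0.0502), bIP 1 (0.1175), bIP 2 (0.118) or bIP 3 (0.0723). It also ended in the gorilla-build table (0.135), in a fit of only these populations (0.0824) and by limma (0.0540).

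FABP7, a fatty acid carrier of radial glia, followed VIM. It measured 223, 316, 192 and 462 CPM in aRG, 102, 119, 163 and 165 CPM in bRG, 20.2, 36.4 and 25.4 CPM in bIP, and 21.1 and 22.5 CPM in N. The populations stood in the order aRG, bRG, then bIP and N, and only bIP and N overlapped. The log2 fold change was -3.45 in bIP against aRG (SE 0.345, edgeR adjusted p = 1.25e-06) and -2.33 against bRG (SE 0.327, 6.82e-05). In N it was -3.78 against aRG (4.1e-06) and -2.66 against bRG (0.000102).

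S100B and ALDH1L1 were called in none of the 6 comparisons. S100B held 185 reads in the 13 libraries together. It measured 0.361, 0.714, 2.30 and 2.58 CPM in aRG, 1.03, 4.56, 0.472 and 0.286 CPM in bRG, 0.448, 4.67 and 1.53 CPM in bIP, and 1.23 and 0.0933 CPM in N. The highest libraries were bIP 2 and bRG 2, and the ranges of all populations overlapped. At this depth only a wide interval could be set: the log2 fold change of bIP against aRG was 0.55, with a 95% interval of -1.61 to 2.70 (edgeR adjusted p = 0.806).

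ALDH1L1 measured 5.06, 9.71, 10.8 and 5.57 CPM in aRG, 3.42, 5.34, 2.95 and 5.90 CPM in bRG, 6.42, 6.15 and 6.38 CPM in bIP, and 5.03 and 2.80 CPM in N. The bIP libraries lay within the aRG range and above every bRG library. None of its differences was called, and the largest of the 6 was -0.999 in N against aRG (95% interval -2.17 to 0.17, edgeR adjusted p = 0.245). Its reads are uncertain: the antisense transcript ALDH1L1-AS2 held 14.0% as many reads as ALDH1L1 over the gorilla-build libraries, and more than ALDH1L1 in bRG 1, and the sources used here do not say whether counting used strand.

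Markers of mature astrocytes were measured beside these genes. The summed level of 7 of them was 113 to 169 CPM in aRG, 64.8 to 132 in bRG, 44.4 to 60.1 in bIP and 53.3 to 57.2 in N, so every aRG library and every bRG library exceeded all bIP and N libraries. MLC1, which encodes an astrocyte membrane protein, fell from 54.9 ± 22.1 CPM in aRG to 2.13 ± 2.63 in bIP (log2 fold change -4.63, edgeR adjusted p = 0.000562), and the gap junction gene GJA1 from 19.0 ± 3.44 to 6.49 ± 0.480 CPM (-1.54, adjusted p = 0.026). Of the 7, only these 2 were called in bIP against aRG, where 9.98% of all genes were called lower. The water channel gene AQP4 stood at 2.70 ± 1.93 CPM in aRG, 2.32 ± 1.53 in bRG (SD, n = 4 each) and 2.35 ± 2.23 in bIP (n = 3). GJB6, a further gap junction gene, measured 0.287 to 2.35, 0.236 to 3.25 and 0.636 to 3.43 CPM in these populations. ALDOC had a higher mean in N (34.5 CPM) than in bRG (27.2 CPM). None of the 7 was at 0 in any population. S100B is also made by Schwann cells and the oligodendrocyte lineage. Their shared marker SOX10 measured 2.41 ± 1.11 CPM in aRG and 1.99 ± 0.80 in bRG. The part of these cells in the S100B values was not tested.

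The next question was whether basal and apical radial glia differed in these genes. By edgeR's quasi-likelihood test none of the 9 was called, where 1.23% of all genes were called lower in bRG and 0.0298% higher. At an unadjusted p under 0.05, 2 of the 9 passed (9.47% of all genes), and DESeq2 and limma with library weights each called 2, where they called 2.66% and 1.77% of all genes in either direction. The genes were VIM and FABP7 in each case, both lower in bRG.

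The mean of FABP7 was 137 ± 31.8 CPM over the bRG libraries and 299 ± 121 over the aRG libraries (SD, n = 4 each), and the lowest aRG library (192 CPM) was above the highest bRG library (165 CPM). Its log2 fold change was -1.12 (SE 0.281, 95% interval -1.71 to -0.53, edgeR adjusted p = 0.065). The mean of VIM was 249.7 ± 49.3 and 471 ± 143 CPM, and aRG 3 (271 CPM) lay below bRG 3 (317 CPM). Its log2 fold change was -0.91 (SE 0.246, -1.43 to -0.40, adjusted p = 0.101). Both were called by DESeq2 (adjusted p = 0.0136 for FABP7 and 0.0313 for VIM), by limma (0.0134 and 0.0389) and without aRG 3 (0.0321 and 0.0186). Without bRG 3, VIM was called (0.0377) and FABP7 was not (0.0512). Within the libraries numbered 1 and 2 the mean log2 difference was -1.27 for FABP7 and -1.16 for VIM, and within those numbered 3 and 4 it was -0.86 and -0.58.

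Some markers of other cells also differed between aRG and bRG. The summed level of 8 choroid plexus and cortical hem genes, led by TTR, was 1615 to 7848 CPM in aRG and 228 to 1300 CPM in bRG. That of 7 mesenchyme genes was 163 to 405 CPM in aRG and 113 to 146 CPM in bRG, with COL1A1 at 50.8 to 179 and 11.6 to 35.5 CPM. The sum of 5 endothelial genes was 42.8 to 103 and 7.90 to 69.1 CPM. These ranges overlapped, and the lowest value was that of bRG 3. Of the 3 lists only TTR (edgeR adjusted p = 0.0163) and COL1A1 (0.00587) were called, where 1.23% of all genes were called lower. CLDN5 was not called (0.343). Members of a list differed: the endothelial sum followed CLDN5 (52.1 ± 24.1 CPM in aRG and 13.7 ± 12.7 in bRG), while PECAM1 was 3.61 to 8.71 and 0.472 to 18.9 CPM, and the hem gene RSPO2 47.5 ± 21.7 and 52.9 ± 41.9 CPM. Among the aRG libraries, aRG 3 was lowest in VIM and FABP7 and had the highest choroid plexus and hem sum (7848 CPM) and endothelial sum (103 CPM). Library aRG 4 was highest in both genes and had the highest mesenchyme sum (405 CPM). No gene of the 3 lists was at 0 in either population. Vimentin is also made by mesenchymal and endothelial cells. The part of these cells in the VIM and FABP7 values was not tested.

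The other 7 genes had wider or more central intervals. The mean of SLC1A3 was 925 ± 347 CPM over the bRG and 1047 ± 231 over the aRG libraries, with a log2 fold change of -0.18 (95% interval -0.73 to 0.37). The interval of NES ran from -0.94 to 0.29, that of SLC1A2 from -1.08 to 0.68, that of GLUL from -0.66 to 0.73 and that of GFAP from -0.88 to 0.62. ALDH1L1 leaned lower in bRG (-0.82, 95% interval -1.74 to 0.10), and the interval of S100B ran from -1.97 to 2.10. None of these shows the populations to be alike. Without bRG 3 the log2 fold change of SLC1A2 was 0.09 in place of -0.20, that of GLUL -0.22 in place of 0.04, and that of GFAP -0.37 in place of -0.13, none of them called.

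**Figure D2:**
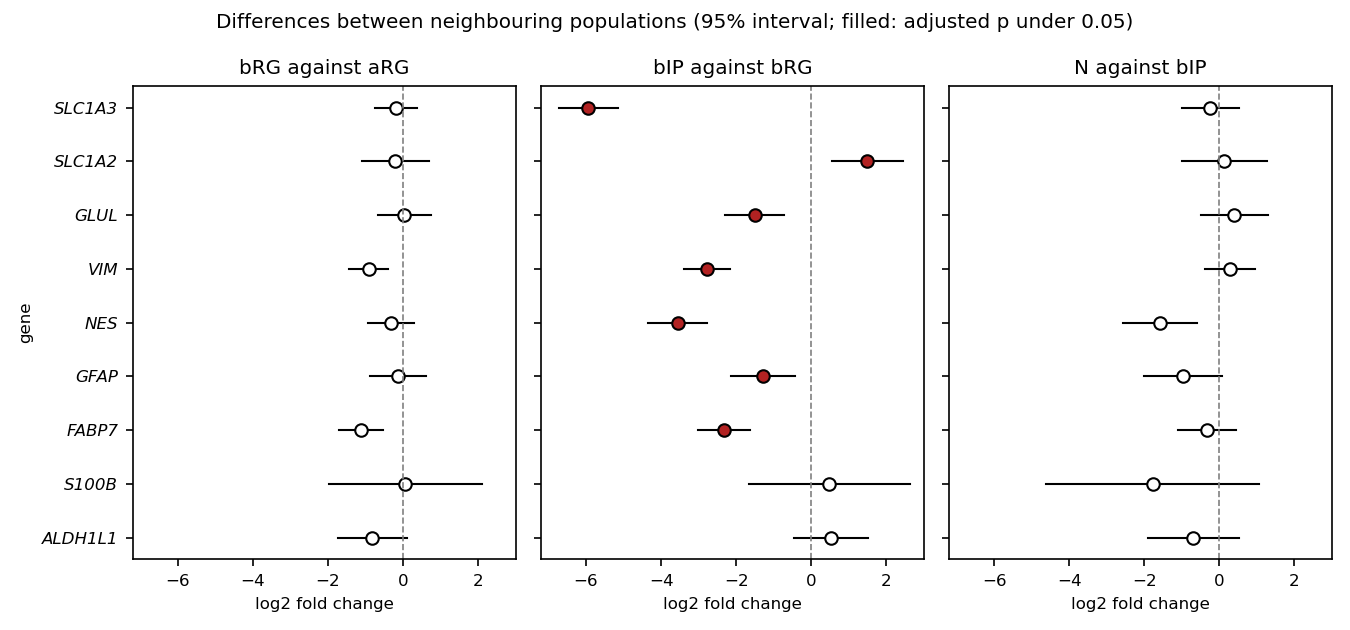
Log2 fold change of each gene between neighbouring populations (point), with its 95% interval (line), where filled points had an edgeR adjusted p under 0.05. The points of VIM (-0.91) and FABP7 (-1.12) lie below 0 without a call in bRG against aRG, and 7 genes are called in bIP against bRG, with SLC1A2 (1.49) the one to the right.

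Neurons were set against basal intermediate progenitors last. None of the 9 genes was called by edgeR, where 0.113% of all genes were called lower in N and 0% higher. NES alone passed edgeR's test at an unadjusted p under 0.05, where 6.64% of all genes did. DESeq2 and limma called 0 (0.996% and 0.613% of all genes in either direction). At an unadjusted p under 0.05 DESeq2 gave 2 and limma 0, and the share of all genes was not counted for them. NES stood at 1.27 ± 0.0569 CPM in N (n = 2, 10 and 14 reads) and 3.81 ± 1.21 in bIP (n = 3), with no overlap (log2 fold change -1.58, 95% interval -2.57 to -0.60, edgeR adjusted p = 0.38). GFAP did not overlap either, at 4.15 ± 0.197 and 8.12 ± 0.99 CPM (-0.97, -2.00 to 0.06, adjusted p = 0.787). GLUL and ALDH1L1 did not overlap, without a call (edgeR adjusted p = 0.912 and 0.896). With 3 and 2 libraries such gaps arise easily. The share of all genes without overlap was not counted, so nothing is read from them. SLC1A3, VIM, FABP7, SLC1A2 and S100B overlapped between N and bIP. By mean level, aRG and bRG were neighbours and so were bIP and N in 7 of the 9 genes, with no call between neighbours. In ALDH1L1 the order was aRG, bIP, bRG, N, and in S100B it was bIP, bRG, aRG, N. For 5 genes (SLC1A3, VIM, NES, FABP7 and GFAP) every comparison of bIP or N with aRG or bRG was called. Of these, GFAP lost its call in bIP against bRG in 10 of 21 alternatives. The share of all genes with such an order of means, or with all these calls, was not counted, so both counts are descriptions.

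The radial glia libraries also differed by number in the glutamate-handling genes. Libraries 1 and 2 of aRG and bRG together held SLC1A3 at 601 to 979 CPM, and libraries 3 and 4 at 1036 to 1363 CPM. GLUL lay at 88.0 to 117 CPM in the former and 131 to 265 CPM in the latter. SLC1A2 ran in the opposite direction, at 117 to 138 CPM in libraries 1 and 2 and 27.5 to 60.8 CPM in libraries 3 and 4. For these 3 of the 9 genes the ranges did not overlap, as for 12.4% of all genes tested, so 3 in 9 is given as a description and nothing particular is read from it. VIM, NES, FABP7, GFAP, S100B and ALDH1L1 overlapped.

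In log2 CPM, libraries 3 and 4 were lower than 1 and 2 in SLC1A2 by a mean difference of -1.48 in aRG and -1.53 in bRG. GLUL was higher in them by 0.70 and 1.23, and SLC1A3 by 0.42 and 0.97. Radial glia libraries 1 and 2 held 5464721 to 7153514 counts and libraries 3 and 4 held 9761818 to 10551184, and the labels do not say what the numbers stand for. The part of depth, or of whatever the numbers mark, was not tested. The bIP 1 and 2 libraries (174 and 306 CPM of SLC1A2) exceeded the radial glia libraries with those numbers, and bIP 3 (204 CPM) exceeded radial glia libraries 3 and 4. With the number pairs as a term in the model, chosen after the data were seen and fitted without the unnumbered neuron library, SLC1A2 was called in bIP against aRG (log2 fold change 1.32, edgeR adjusted p = 0.00449), and its call in N against bRG ended (0.0705), as did that of GFAP (0.0622). FABP7 in bRG against aRG was called in that fit (-1.14, adjusted p = 0.0404).

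**Figure D3:**
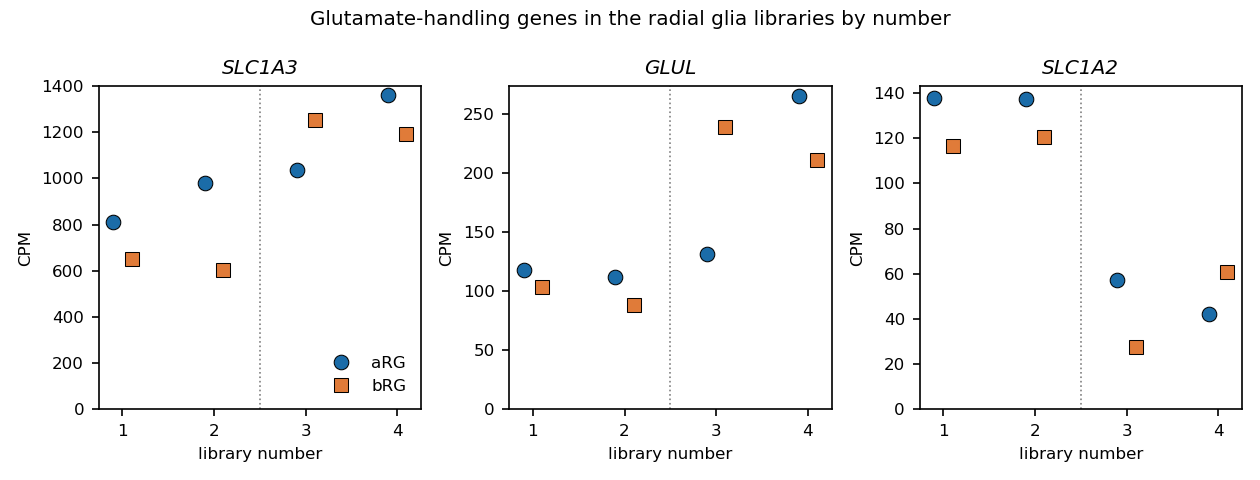
CPM of SLC1A3, GLUL and SLC1A2 in the aRG (circles) and bRG (squares) libraries by library number, with a dotted line between 2 and 3. SLC1A3 and GLUL lie higher in libraries 3 and 4 (from 1036 and 131 CPM) and SLC1A2 lower (up to 60.8 CPM), in both populations.

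Over the 8 radial glia libraries the 9 genes did not move as a block. SLC1A3 followed GLUL (Pearson r of log2 CPM 0.91, Spearman rho 0.98), both ran against SLC1A2 (r = -0.78 and -0.87), and VIM followed FABP7 (r = 0.87, rho 0.81). VIM and NES, which share the radial fibre, had r = 0.32, and NES and GFAP -0.52. These values describe 8 libraries that share populations, numbers and depth, and carry no p.

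Likeness was measured against the 9184 genes whose mean log2 CPM reached 4. Those most like SLC1A3 over the 8 radial glia libraries were PARP2 (r = 0.98), ARCN1 (0.97) and GALC (0.97). GLUL was followed by PCDHB16, TSC22D1 and ADAM10 (each 0.99), SLC1A2 by RGS9 (0.98), CIZ1 (0.97) and ORAI2 (0.97), and GFAP by PXDN, HLA-B and STYX (0.97 each). VIM was followed by TPRKB, DNAJC8 and MCRS1 (0.98, 0.98 and 0.97), FABP7 by RAP2A, NDST1 and RPL7A (0.99, 0.98 and 0.97), and NES by FAAP100, MOB3A and SYT4 (0.97, 0.95 and 0.94). With so few libraries such values are common: 177 genes had r over 0.9 with SLC1A3 and 215 with GLUL.

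Over all 13 libraries, where the divide between radial glia and the rest sets most of r, the genes most like SLC1A3 were LIPG, ZFP36L1 and PLPP3 (1.00, 0.99 and 0.99). For NES they were LAMB2, PLAT and NFATC4 (0.99, 0.98 and 0.98). For VIM they were CENPF, CENPE and MCM4 (0.99 each), genes of chromosome segregation and DNA replication, and for FABP7 CCND1, CDC20 and GPC6 (0.98 each). SLC1A2 was most like GOLGA7B, MFSD13A and STX1A (0.97, 0.96 and 0.96), the last a synaptic vesicle fusion gene. GLUL was most like SLC16A1, BCHE and CTDSP2 (0.97, 0.96 and 0.96), and GFAP like CALB1, STX16 and TNFAIP8 (0.96 each). The best match of S100B reached 0.77, in counts too sparse to read (185 reads in the 13 libraries together). That of ALDH1L1 reached 0.87, also in low counts (661 reads), and nothing is read from it.

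Related genes outside the 9 were taken from 5 lists. Of 31 tested astroglial genes, 18 fell and none rose in bIP against aRG (median log2 fold change -1.54, all genes -0.04), and 16 fell against bRG (median -0.99). In N, 17 fell against aRG and 15 against bRG. Over all genes 9.98% fell in bIP against aRG and 8.44% against bRG, and in N 9.37% and 9.13% fell. FGFR3, a fibroblast growth factor receptor gene, fell from 253 ± 17.7 CPM in aRG (SD, n = 4) to 28.3 ± 1.48 in bIP (n = 3), a log2 difference of -3.16 (SE 0.253, edgeR adjusted p = 1.27e-07). The lipid phosphatase gene PLPP3 (-5.03) and the matrix proteoglycan gene BCAN (-4.78) fell too. AQP4 (-0.18), GJB6 (0.59) and APOE (-0.58) of the list were not called. In bRG against aRG, PLTP, a phospholipid transfer gene, was the one gene of the list called (-1.19, SE 0.263, adjusted p = 0.0258). Over all genes 1.23% were called lower there and 0.0298% higher.

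Scaffold genes other than VIM and NES split. Of 26 tested genes of the radial fibre and cytoskeleton list, 7 fell and 4 rose in bIP against aRG (median -0.05), and 4 fell and 6 rose against bRG. Over all genes 9.98% fell and 8.47% rose in bIP against aRG (median -0.04), and 8.44% fell and 8.25% rose against bRG. The matrix protein gene TNC (-2.76), the laminin receptor subunit ITGA6 (-2.95) and the nuclear lamin LMNB1 (-2.59) fell against aRG, and the neuronal adhesion gene NRCAM rose (2.09, edgeR adjusted p = 3.46e-05). LMNB1 was the one gene of the list called in bRG against aRG (-1.42, adjusted p = 0.0285), where 1.23% of all genes were called lower. Among 5 neuronal intermediate filament genes INA, which encodes alpha-internexin, rose from 43.4 ± 15.9 CPM in aRG to 173 ± 25.4 in bIP (2.00, adjusted p = 8.35e-05), and no other was called in any of the 6 comparisons.

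Of 15 tested genes of glutamate and glutamine handling, 4 rose and 2 fell in bIP against aRG (median 0.08). Over all genes 8.47% rose and 9.98% fell there (median -0.04). SLC1A1, the glutamate transporter of neurons, rose from 5.18 ± 0.827 to 37.9 ± 20.3 CPM (2.86, SE 0.451, edgeR adjusted p = 0.000149), and the vesicular transporter SLC17A7 from 21.3 ± 7.89 to 159 ± 16.1 CPM (2.91). The neutral amino acid transporter SLC1A5 fell (-2.22), as did the glutamine transporter SLC38A3 (-2.96). SLC1A6, a further glutamate transporter, rose in bIP (1.48) and in N (1.97) against bRG. None of the 15 was called in bRG against aRG by edgeR, where 1.23% of all genes were called lower and 0.0298% higher.

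Relatives of FABP7, S100B and ALDH1L1 were mixed. Of 17 tested genes of the FABP, S100 and ALDH1 families and of folate metabolism, 4 rose and 2 fell in bIP against aRG (median -0.17), where 8.47% of all genes rose and 9.98% fell. In bIP against bRG 3 rose and 2 fell (median -1.06), where 8.25% of all genes rose and 8.44% fell. In N against bRG 4 rose and 3 fell (-1.61), where 10.6% rose and 9.13% fell. In N against aRG 4 rose and none fell (-0.99), where 10.4% rose and 9.37% fell. The medians of all genes were between -0.09 and -0.04 in these comparisons. The gene at the list median in bIP against bRG was S100A4, at 0.749 and 1.62 CPM. It was also S100A4 in N against aRG, at 0.233 and 0.480 CPM, and it was called in neither. From aRG to bIP, the heart-type carrier FABP3 rose from 40.7 ± 10.1 to 100 ± 16.1 CPM (1.30, SE 0.286, edgeR adjusted p = 0.00303). FABP7 fell there. ALDH1L2, the mitochondrial relative of ALDH1L1, rose from 36.9 ± 6.17 to 128 ± 19.6 CPM (1.79, SE 0.246, adjusted p = 3.71e-05), whereas ALDH1L1 was not called. No gene of these families was called in bRG against aRG, where 1.23% of all genes were called lower and 0.0298% higher.

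**Figure D4:**
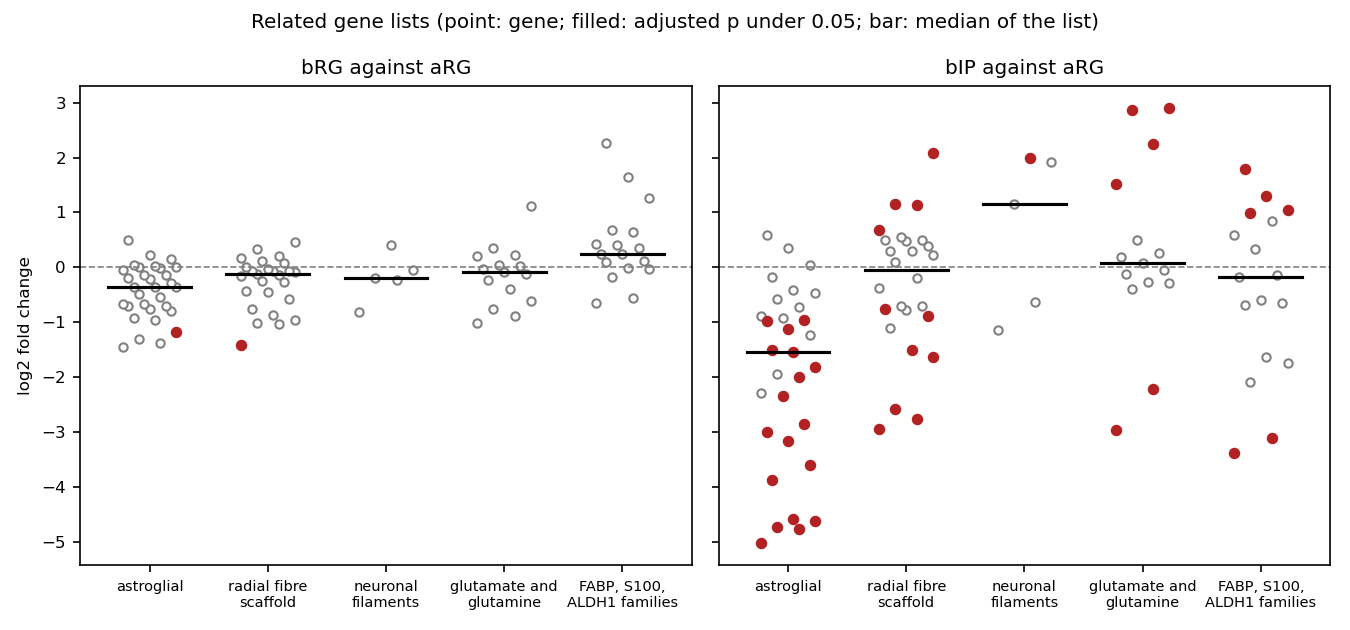
Log2 fold change of each tested gene of the 5 related lists in bRG against aRG and in bIP against aRG (filled points: edgeR adjusted p under 0.05), with the median of each list as a bar. The astroglial list has its median at -1.54 and 18 filled points in bIP against aRG, and at -0.36 with 1 filled point in bRG against aRG.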

How the data were processed

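RNA of 10000 sorted cells per library was made into Smart-seq2 libraries without molecular identifiers, amplified for 12 to 17 cycles, per the labels' protocols. The authors deposited 2 tables of raw counts per gene symbol, one on hg38 and one on gorGor6 (named so only in the table's title). Per the submitters' processing notes the aligner STAR and the build hg38 were used. Counter, annotation and strand setting were not given in the sources used here. Tests used the hg38 table, with 18137 genes. Left out was 1 gorGor6 row with no symbol, 0.0035% to 0.0077% of each library. The number on one neuron column matched no neuron label, so that library is called unnumbered.

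Counts were scaled by TMM and tested with edgeR 4.0.16 in R 4.3.3 (filterByExpr with a minimum count of 10, quasi-likelihood F-test, 13 libraries in 1 fit, 6 comparisons). A standard error is the fold change divided by the root of F. Log2 CPM used a prior count of 2. Alternatives used DESeq2 1.42.0, limma 3.58.1 (voom with library weights), DESeq2 size factors, no filter, the gorGor6 table, the replicate block, a fit of 2 populations and the removal of each library. No library duplicated another: within populations, chi-square over its degrees of freedom was 10.6 to 92.4. The test was first run on simulated data. Members, lists and tests were chosen with earlier results of these data known. All members are named, with up to 4 called genes of smallest p per list and comparison (1 item is not reported here) and the 3 most alike genes per member. SLC1A6 (a smallest-p gene against bRG) and the uncalled AQP4, GJB6 and APOE were named for contrast, the latter, like single marker genes, after their values were seen.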

Additional observations from a re-analysis of the deposited data

Results flagged for a closer look

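Of 18 sets of values checked (9 genes in aRG and in bRG), 1 held a library far from the rest: GLUL measured 264.5 CPM in aRG 4, and the other 3 aRG libraries lay between 111 and 131 CPM. Chance gives about 1 such set in 20. Without aRG 4, GLUL in N against bRG was called (log2 fold change -1.16, edgeR adjusted p = 0.0339). The cause was not tested.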

How the results depend on the processing

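Each log2 fold change of the 9 genes was recomputed under up to 21 alternatives, 13 of which left out 1 library. Of 1131 such values, 1071 kept their direction or stayed uncalled and kept their side of the threshold, 26 lost a call, 34 gained one and 0 reversed a call. The calls of SLC1A3, VIM, NES and FABP7 in bIP and N against both radial glia populations were kept in all of them. Those that changed concerned SLC1A2, GFAP, GLUL, and VIM and FABP7 in bRG against aRG. There the number of the 9 called was 0, and it was 2 by DESeq2, 2 by limma, 1 with the replicate block, 1 with the number pairs as a term, and 0 to 2 without 1 library. The cause was not tested.

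Whether the replicate numbers pair the libraries could not be settled. Deviations from the population means correlated over 0.1 in 5 of 10 same-numbered pairs (-0.01 to 0.39) and in 9 of 30 other pairs (-0.28 to 0.21). Of the 11 aRG, bRG and bIP libraries, 5 correlated best with a library of their own number, a hint from the data and not the design. The replicate block, fitted on 12 libraries, ended the calls of SLC1A2 (edgeR adjusted p = 0.0933) and GFAP (0.0507) in N against bRG and of GFAP in bIP against bRG (0.0502). It gave calls to FABP7 in bRG against aRG (0.0219) and SLC1A2 in bIP against aRG (0.0113). Fits without 1 neuron library assume that the other varies like the remaining groups.

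The count over all genes moved by over 1.5 times as follows. In bRG against aRG it was 211, 385 by DESeq2 and 131 without aRG 4. In bIP against aRG it was 3100 and 4813 by limma. In N against bIP it was 19, 172 by DESeq2, 103 by limma, 48 in a fit of these populations, 1 with the block, 3 with the number pairs, and without 1 library 70 (bRG 3), 33 (bIP 3), 12 (bIP 1), 10 (bIP 2), 2 (N 1) or 0 (the other neuron library). In N against bRG it was 3321, 1822 with the block, 1947 with the number pairs, 2027 in a fit of these populations, and 1956 or 1698 without N 1 or the other neuron library. In N against aRG it was 3320, 1988, 2193, and 1979 or 1903 likewise.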
